A study of Caenorhabditis elegans with 6 samples.

Results

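The 112 loci described here were unnamed rows of a small RNA table of Caenorhabditis elegans in which the 22G signal was lower in High worms than in Low worms. An unnamed locus is a row known in the table only by its sequence name, such as T28D6.4. Of the 46761 rows, 19922 had such a name and 4082 of those averaged at least 10 normalized counts over the 3 Low libraries. A locus was taken when (High mean + 1)/(Low mean + 1) was below 0.5 and every High library lay below every Low library, and 112 of the 4082 (2.74%) met both conditions. The loci were thus selected on the 22G values of the same 6 libraries, so their 22G differences are a description and carry no test. Their 26G and 21U signals, annotation and chromosome were not used by the choice. No library was left unused by it. The selection was also repeated with libraries left out, which describes its dependence on single libraries and is no test of the 112.

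All 6 libraries came from whole gravid adults of strain BCN1050, which carries unc-119(ed3) in an N2 background and the integrated reporter crgIs1002, a daf-21 promoter driving mCherry with the unc-54 3′ UTR beside a functional unc-119 copy. High worms are the F2 descendants of a P0 generation at 25 °C, Low worms those of a P0 generation at 16 °C. Both lines of descent were at 20 °C from the L4 stage of the P0 on, and the F2 grew for 72 hours from L1 larvae before RNA was taken. The submitters call the 3 libraries of each group biological replicates. A population of whole worms was lysed for each library, so fewer cells of a type and less small RNA per cell cannot be told apart.

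22G RNAs are secondary small interfering RNAs of nematodes. RNA-dependent RNA polymerases copy them from a target transcript, so that they are antisense to it, and worm-specific Argonautes use them to silence genes, license germline expression or carry a silenced state to descendants. 26G RNAs are primary small RNAs made with Dicer that trigger 22G production on their targets, and 21U RNAs are the piRNAs bound by the Argonaute PRG-1. How the submitters assigned reads to these classes, which strand was counted and how reads with several matches were placed is not stated in the files or labels.

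The library of Low replicate 1 stood apart from the others. Its 26G total was 57141 normalized counts, against 17491 to 25760 in the other 5 libraries, and its 21U total was 59360, against 41430 to 45567. In the file headers the number in its column name lies outside the close run of numbers of the other 5, and what the numbers stand for is not stated. It was also the shallowest library of the 22G class, with 1380170 recovered reads, where Low replicate 2 had the most, 2685999. Values with and without it are therefore given below.

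By annotation the 112 loci fell into 2 kinds, a split made after the values were seen. The first kind, 54 rows, were short noncoding RNA rows of 68 to 244 bases that overlap a tRNA gene on the opposite strand, 53 of them a single tRNA gene. The other 58 rows were 46 protein-coding genes, 8 pseudogenes, the noncoding RNA row Y108G3AL.10, the small nuclear RNA row F56A12.5, the antisense row T08G5.19, and ZC411.1, which had no match in the Ensembl annotation. ZC411.1 had the same values as F07B7.7 in all libraries, so the 58 rows held 57 distinct patterns. In the other 58, Low replicate 1 was the highest library for 20, while in the 54 rows opposite tRNA genes it was the highest for all 54. Relative to the mean of Low replicates 2 and 3, with 1 added to each, Low replicate 1 had a median ratio of 1.03 in the other 58, ranging from 0.295 to 1.81. In the 54 rows the median ratio was 4.94, ranging from 1.92 to 11.2. Without Low replicate 1, 53 of the other 58 still met the conditions and 0 of the 54 did.

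**Figure D1:**
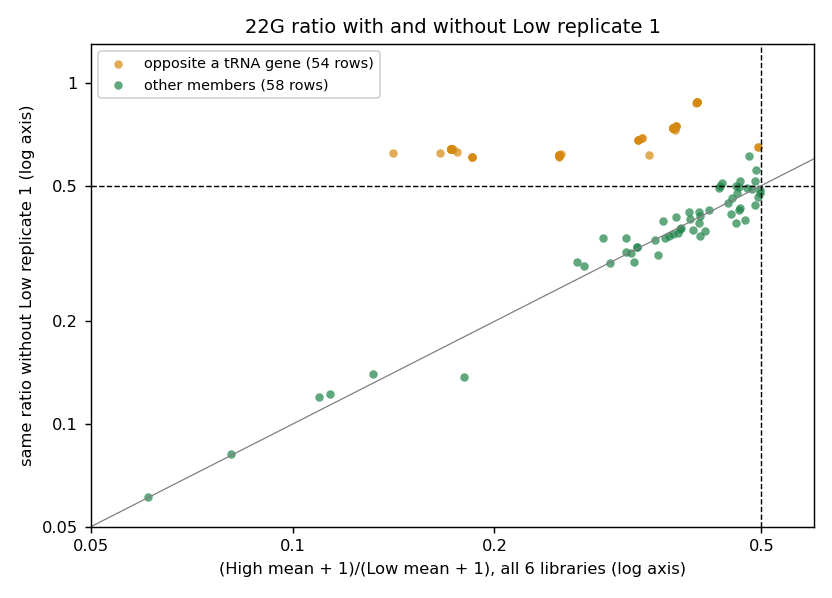
The (High mean + 1)/(Low mean + 1) ratio of 22G normalized counts of each locus with all 6 libraries (horizontal, log axis) against the same ratio without Low replicate 1 (vertical, log axis). Dashed lines mark the threshold of 0.5 and the grey line equal values. The 54 rows opposite tRNA genes lie above 0.5 on the vertical axis, with a median of 0.641, while the other 58 loci stay near the grey line, with a median of 0.391.

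Among the other 58 loci the lowest ratio belonged to T28D6.4, a protein-coding gene on chromosome III. It held 49.5, 59.5 and 49.1 normalized 22G counts in the High libraries, in the order of replicates 1 to 3, against 885, 872 and 886 in the Low libraries. The 3 values of a group lay close together, and the Low mean was 16.7-fold the High mean. The fitted difference, High minus Low on the log2(normalized count + 1) scale, was −4.04 (SE 0.10, n = 3 per group). F08G5.3, a protein-coding gene on chromosome IV, held 25.3, 10.7 and 12.3 in High against 214, 215 and 201 in Low. F22B7.9, on chromosome III, held 28.6, 21.3 and 19.6 in High against 203, 192 and 152 in Low. For both, the lowest Low value was several times the highest High value, and the log2 differences were −3.72 (SE 0.26) and −2.93 (SE 0.18).

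F08G5.3 also contains the members F08G5.15 and F08G5.21, both opposite tRNA genes. The host gene did not share their pattern over the Low libraries. F08G5.15 held 174, 35.9 and 44.5 in Low replicates 1 to 3, with Low replicate 1 far above the rest, where F08G5.3 held nearly equal values. In all, 29 of the 57 matched loci of this kind overlapped another annotated gene, 19 a protein-coding gene and 5 a tRNA gene (F08G5.3, F22B7.9, T03G6.3, Y54G2A.44 and F33D11.8). In High replicate 2, F08G5.3 held 10.7, while F08G5.15 and F08G5.21, on the opposite strand, held 29.3 and 39.97. The reads of these rows were thus not all counted in F08G5.3. How far this holds for the other overlaps was not tested, and the strand counted is not given. Where a locus and an overlapping gene lie on the same strand, their reads cannot be told apart.

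Direct neighbours, in the order of protein-coding genes and pseudogenes only, were found once among these 58 loci. ZC190.7, ZC190.8 and ZC190.10 follow each other on chromosome V, all annotated as protein-coding. ZC190.7 also overlaps the protein-coding gene ZC190.1 on the opposite strand. ZC190.8 held 11.0, 10.7 and 25.4 in High against 167, 145 and 126 in Low. ZC190.7 had no read in High replicates 1 and 2 and held 5.73 in High replicate 3, against 30.3, 22.2 and 24.3 in Low. ZC190.10 held 20.9, 7.11 and 14.7 in High against 39.4, 37.4 and 37 in Low. The drop in High was thus steep at the first 2 genes and shallower at the last, with log2 differences of −3.80 (SE 0.69), −3.24 (SE 0.29) and −1.47 (SE 0.33) in the order along the chromosome.

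Other pairs lay close to each other. F20D1.1 and F20D1.3 on chromosome X, C40A11.6 and C40A11.7 on chromosome II, and R08E3.3 and F39C12.1 on chromosome X each had 1 gene between them. Only protein-coding genes and pseudogenes were counted. F20D1.1 held 7.71, 7.11 and 7.37 in High against 37.9, 32.1 and 13.8 in Low, and F20D1.3 held 15.4, 18.7 and 10.6 in High against 33.3, 48.1 and 36.0 in Low. The groups of both genes were apart, though Low replicate 3 of F20D1.1 lay much nearer to the High libraries than the other Low libraries did. The pseudogene T08G5.13 and F58D12.1 on chromosome V, with 4 genes between them, had nearly equal values: 77.1, 66.6 and 72.0 against 83.7, 71.1 and 76.1 in High, and 212, 129 and 156 against 224, 145 and 166 in Low. If both draw on the same reads they are 1 observation, and they are uncertain for that reason.

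T28D6.4 was also among the loci with the highest Low means, not scaled by length, and the others so named follow. Y54F10BM.9 on chromosome III held 1081, 1014 and 1000.1 in High against 2557, 2664 and 2414 in Low. F41B5.1 on chromosome V held 538, 549 and 532 in High against 1393, 1561 and 1443 in Low. Their log2 differences were −1.30 (SE 0.06) and −1.44 (SE 0.06). Within each gene the gap between the groups was many times the spread inside them.

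The pseudogenes W06A11.4, Y73F8A.33 and T02G5.4 were in the same range. W06A11.4 held 287, 316 and 311 in High against 764, 767 and 911 in Low. Y73F8A.33 held 344, 271 and 267 in High against 764, 799.8 and 775 in Low. T02G5.4 held 484, 509.8 and 499 in High against 906, 1055 and 1045 in Low. The groups of each were far apart relative to their spread, although T02G5.4, at a ratio of 0.497, only just entered the selection. Y102A5C.36, a protein-coding gene on chromosome V, held 276, 341 and 291 in High against 869.9, 755 and 995 in Low.

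**Figure D2:**
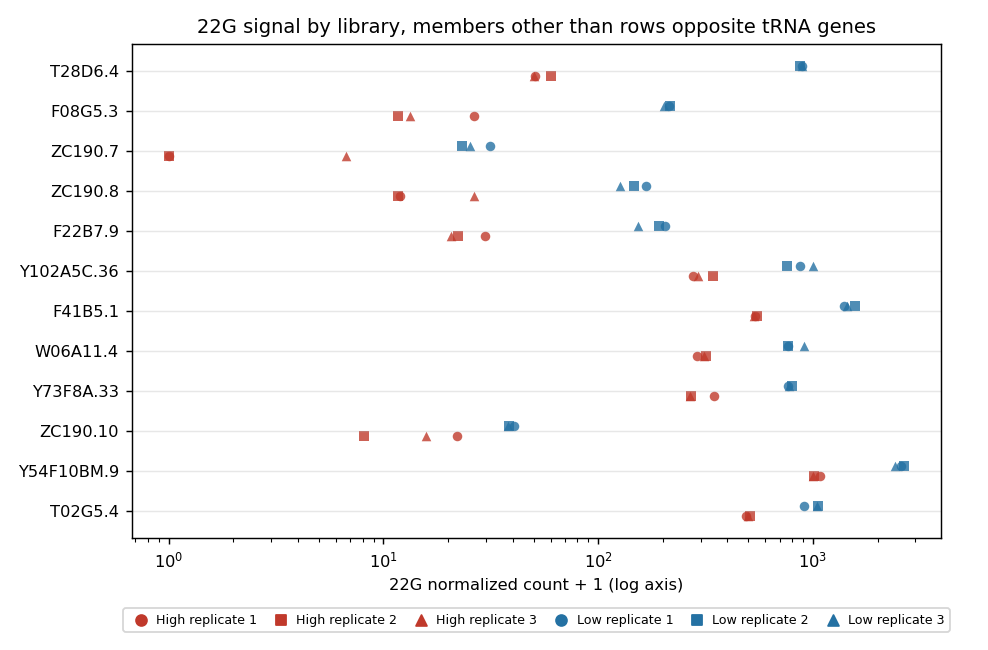
22G normalized count plus 1 (log axis) in each of the 6 libraries for 12 loci not opposite tRNA genes: those named for the lowest ratios, the highest Low means or as direct neighbours. Red marks are High and blue marks Low libraries, with the shape giving the replicate. T28D6.4 shows the widest gap, from 59.5 in the highest High library to 872 in the lowest Low library.

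Although the table names these rows by sequence, 8 of the other 58 carry a gene symbol in RefSeq for assembly WBcel235. C36C9.1 is meg-4, whose protein takes part in the assembly of P granules, the germline condensates where small RNA pathways meet their targets. It held 52.8, 44.4 and 53.2 in High against 169.7, 152 and 106 in Low. F13B9.1 is sec-16A.2, named after the Sec16 proteins of endoplasmic reticulum exit sites, and held 117, 88.8 and 103 in High against 323, 259.7 and 251 in Low. For both genes every Low library lay well above every High library, with log2 differences of −1.47 (SE 0.18) and −1.42 (SE 0.13).

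ZC504.3 is cdk-11.2, a cyclin-dependent kinase gene, with 56.2, 65.7 and 72.0 in High against 124, 157 and 112 in Low. F33D11.8 is the neuropeptide-like gene nlp-62, with 38.5, 45.3 and 36.8 in High against 63.6, 87.9 and 98.4 in Low. Y82E9BR.21 is pals-18 of the large pals family, with 30.8, 16.9 and 14.7 in High against 100.02, 58.1 and 85.7 in Low. The groups of the 3 genes do not overlap, and pals-18 had the larger log2 difference, −1.95 (SE 0.29), against −1.01 (SE 0.18) for nlp-62. F14D12.1 is soc-3, a gene of fibroblast growth factor receptor signalling, with 9.91, 9.77 and 7.37 in High against 28.8, 16.0 and 14.8 in Low. It left the selection without Low replicate 1, as did K08D10.11, R08E3.3, T08G5.13 and Y59A8B.25. F20D1.1 is flwr-1, the gene of the Flower protein, and K08D12.6 is epic-2.

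Over the other 58 loci the ratio had a median of 0.4 and a range of 0.0609 to 0.497. The coefficient of variation between replicates had a median of 16.6% in High and 16.5% in Low. Counting rows of the same values once, they held 0.243% to 0.251% of all 22G signal in the High libraries and 0.679% to 0.710% in the Low libraries. Low replicate 1 was at the lower end of the Low range for this sum, at 0.679%.

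The 54 rows opposite tRNA genes had a different pattern over the libraries. ZK899.10, on chromosome X, held 39.6, 44.4 and 37.6 in High against 593, 69.5 and 58.2 in Low. The groups were apart in all libraries, but Low replicates 2 and 3 lay much nearer to the High libraries than to Low replicate 1. C05C9.7 held 217, 205 and 192 in High against 1068, 225 and 241 in Low. C16B8.8, which overlaps both C16B8.t2 and C16B8.t3, held 15.4, 11.5 and 13.1 in High against 258, 22.9 and 21.2 in Low. The ratio of the 54 rows had a median of 0.289 with all libraries and 0.641 without Low replicate 1, and their coefficient of variation had a median of 10.1% in High and 98.5% in Low.

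These 54 rows are not 54 observations, because they held 22 distinct patterns of values over the 6 libraries. Grouping rows whose reads differed by at most 5% or 2 reads in every library gave a set of 14 rows around C06E4.20, a set of 12 with C48C5.6 and ZK899.10, a set of 9 around C56G3.3, sets of 5 around C04E7.7 and F08G5.15, a set of 3 with B0212.7, the pair C16H3.6 and C16H3.7, and 4 single rows (C16B8.8, C28A5.10, K12H4.10 and ZK970.11). The members of the set of 14 lie on 5 chromosomes and those of the set of 12 also on 5, so the rows of a set with near-equal values need not overlap each other. These sets held only 4 and 3 distinct patterns of 22G values. Whether a read with several matches was counted at each of them was not tested. The set of 14 had medians of 16.5, 40 and 35.2 in High against 169.7, 43.5 and 40.2 in Low, and the set of 9 had 57.3, 61.3 and 67.1 in High against 550.1, 108 and 94.2 in Low. In every set Low replicate 1 had the highest 22G median. Of the 54 rows, 25 lie inside a protein-coding gene, among them 5 in ajm-1, 1 in osm-9 and 1 in unc-22.

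**Figure D3:**
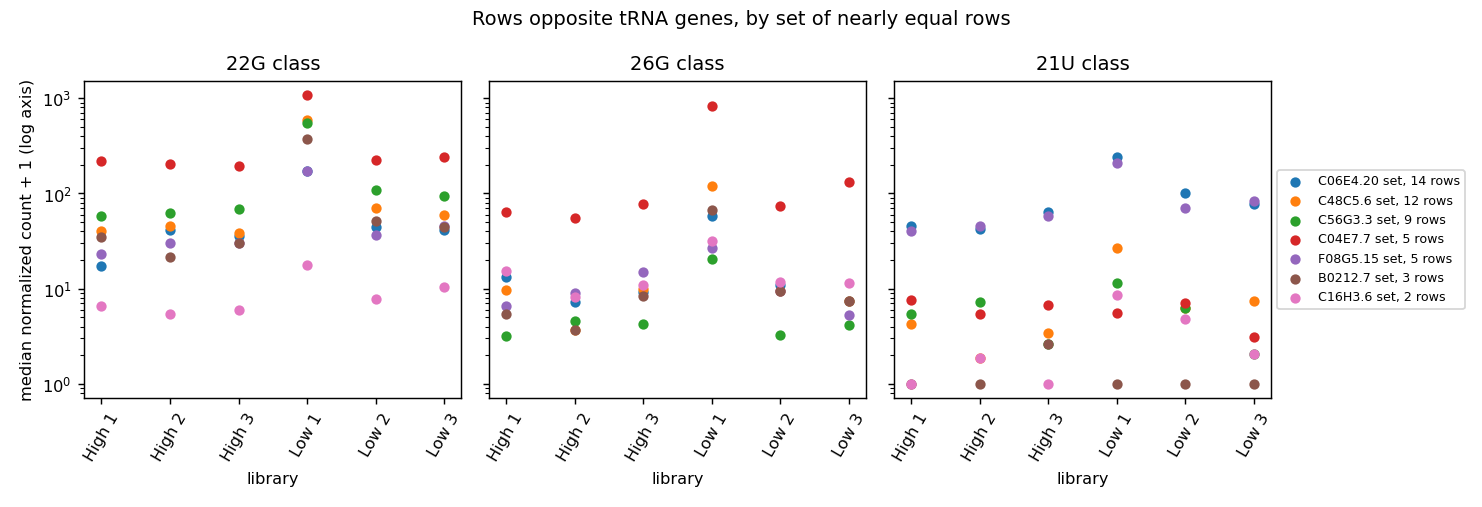
Median normalized count plus 1 (log axis) in each library for the 7 sets of at least 2 nearly equal rows opposite tRNA genes, in the 22G, 26G and 21U classes. Colours mark the sets. Low replicate 1 is the highest library for each set in the 22G and 26G panels, for example 1068 and 818 for the C04E7.7 set, but not for the C04E7.7 and B0212.7 sets in the 21U panel.

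The pattern in Low replicate 1 was shared by rows of this annotation that were not selected. In all, 161 unnamed rows opposite tRNA genes reached a Low mean of 10, and 54 of them (33.5%) were members. The remaining 107 had a median Low replicate 1 ratio of 4.47, near the 4.94 of the members, and a median High to Low ratio of 0.383. By contrast, the 3921 unnamed loci of the same level that were not opposite tRNA genes had a median Low replicate 1 ratio of 0.982. The rows of the 55 tRNA genes themselves held little 22G signal, with a median of 1.02 and a maximum of 16.5 normalized counts as a mean over the 6 libraries, and they are listed at 0 in the 26G and 21U tables in every library. Whether the signal on the opposite rows derives from tRNA was not tested.

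Both kinds were described with the same fit across all 22G rows, limma-trend with a Benjamini-Hochberg adjusted p under 0.05. Of the 9402 rows tested, 250 (2.66%) were called lower in High and 530 higher. Of the 112 members, 49 were called lower, all among the other 58 loci, and 0 of the 54 rows opposite tRNA genes were called by limma. At an unadjusted p under 0.05 the counts were 58 and 49 (7.36% of all rows tested were lower at this level), while edgeR called 49 and 0 (background 249 of 9402, 2.65%) and DESeq2 called 50 and 0 (background 308 of 9402, 3.28%). Without a filter on low rows 84 of the 112 were called, against 1.73% of all rows. These were 51 of the other 58 and 33 of the 54, so the absence of calls among the 54 depends on the filter. Since the same contrast chose the loci, nothing is read from these counts. Without Low replicate 1, 48 of the other 58 and 23 of the 54 were called (background 263 of 9348, 2.81%), and the median log2 difference of the 54 moved from −1.40 to −0.64, while that of the other 58 moved from −1.35 to −1.38.

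The selection was then repeated in all 9 ways of leaving out 1 High and 1 Low library, and the selected loci were compared in the left-out pair. With Low replicate 1 left out, 58 to 67 loci were selected and none of them was opposite a tRNA gene. Of these, 93.7% to 97% were lower in the left-out High library than in Low replicate 1, with median ratios of 0.412 to 0.437. Over all 4043 unnamed loci of the level the share was 46.6% to 48.5% and the median ratio 1.01 to 1.02. With Low replicate 1 among the libraries used, 61 to 80 loci not opposite tRNA genes were selected, of which 70% to 90.8% were lower in the left-out High library, with median ratios of 0.447 to 0.551. The rows opposite tRNA genes then numbered 79 to 129. Between 65.9% and 97.6% of them were lower in the left-out High library, but their median ratios were 0.622 to 0.943, nearer to 1. The 9 repeats share libraries and are not independent. Each repeat chose its own loci, so these shares are no test of the 112, which were chosen with all 6 libraries.

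**Figure D4:**
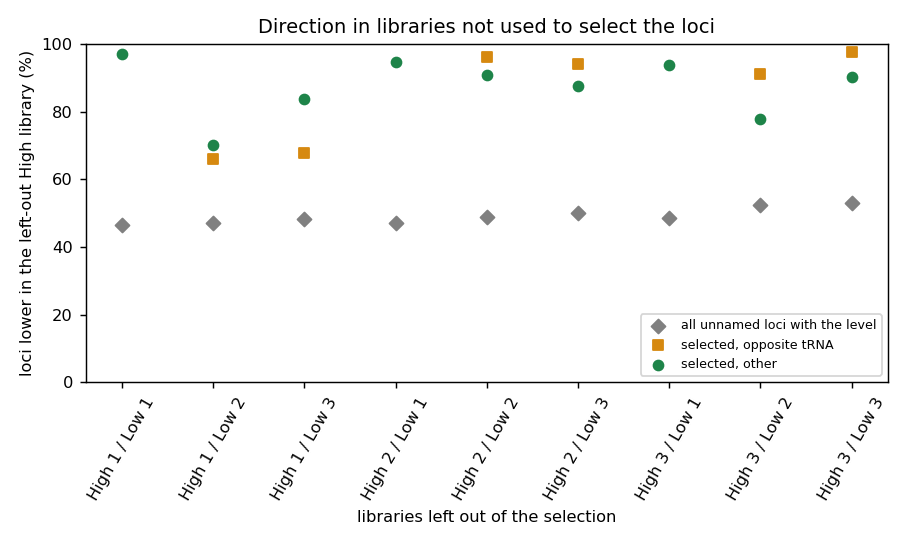
Share of loci (%) with less 22G signal in the left-out High than in the left-out Low library, for each of the 9 left-out pairs. Green circles are selected loci not opposite tRNA genes, orange squares selected rows opposite tRNA genes (0 such rows where Low replicate 1 was left out), and grey diamonds all unnamed loci of the level. The green circles lie between 70% and 97% and the grey diamonds between 46.6% and 53%.

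In the 26G class, which the selection did not use, presence of reads followed the annotation. All 54 rows opposite tRNA genes had 26G reads and 52 passed the filter of a mean of 5 normalized counts. Of the other 58 loci, 20 had a 26G read in any library and 0 passed the filter. Of all 161 rows opposite tRNA genes of the level, 100% had a 26G read and 76.4% passed the filter. Of the 3921 unnamed loci of the level not opposite tRNA genes, 38.1% had a read and 2.24% passed, beside 34.5% and 0% of the 58, so having reads is not read as a result about the members. The summed 26G signal of the 58 was 3.30 to 6.55 normalized counts in the High and 7.64 to 15.9 in the Low libraries, counting rows of the same values once. As a share of all 26G signal of a library it was 0.0160% to 0.0353% in High and 0.0159% to 0.0616% in Low. By this share the groups overlapped, with Low replicate 1 below every High library. The sums rest on few reads, and nothing is read from them.

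By limma, 0 of the 52 tested members were called changed in the 26G class, against a background of 0 of 272 (0%). C16B8.8 was the 1 row with an unadjusted p under 0.05, a share that was 1.1% over all 272, and edgeR and DESeq2 also called 0 of the 52, where over all 272 rows edgeR called 0 and DESeq2 called 7 (2.57%). C16B8.8 held 0, 7.11 and 1.64 normalized 26G counts in High and 103, 4.58 and 12.7 in Low, and its fitted difference was −2.85 on the log2 scale (SE 1.2, limma adjusted p = 0.518). C05C9.7 held 62.8, 54.2 and 76.1 in High against 818, 73.3 and 132 in Low (limma adjusted p = 0.518). In both, Low replicate 1 again held several times as much as any other library, and in both the groups overlapped. In 0 of the 52 did all High libraries lie below all Low libraries, which held for 10.7% of the 272. The median log2 difference of the 52 was −0.81, beside −0.53 over all 272. With each library scaled to the same 26G total these medians were −0.18 and 0.09. The filter favours rows that are high in Low replicate 1. Without that library 44 members passed, with a median of −0.23, beside −0.22 over all 251 rows.

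In the 21U class 88 of the 112 members had a read and 36 passed the filter, 34 rows opposite tRNA genes and the genes F41B5.1 and Y54F10BM.9. With a read were 78.6% of the members and 73.1% of all unnamed loci of the level. The filter was passed by 63.0% of the members opposite tRNA genes and 76.4% of all 161 such rows, and by 3.45% of the other members and 4.51% of the unnamed loci not opposite tRNA genes. By limma 0 of the 36 were called, against a background of 1 of 592 (0.169%), while 34 had an unadjusted p under 0.05, a share that was 20.9% over all 592. edgeR and DESeq2 also called 0 of the 36, and over all 592 rows they called 2 (0.338%) and 4 (0.676%). In all 36 the High libraries lay below the Low libraries, which held for 26.9% of the 592. The median log2 difference was −1.33 for the 36 and −0.38 for the 592, or −1.09 and −0.17 with equal 21U totals. Rows that pass through high Low values are favoured by the filter, and the 36 rows held 12 distinct patterns of 21U values, so the count is given without weight. Without Low replicate 1, 27 members passed the filter and limma called 14 of them lower (background 28 of 580, 4.83%). Without Low replicate 3 it called 16 (background 47 of 592, 7.94%), and without a filter 15 (background 22 of 7634, 0.288%).

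The 14 rows called without Low replicate 1 were those of the set around C06E4.20, which held 4 distinct patterns of 22G values. In this 21U fit all of them except F47E1.12 had the same difference, SE and adjusted p, so they are not 14 observations. Among them, C10G8.9 on chromosome V, held 44, 40.9 and 62.2 normalized 21U counts in High and 241, 100.1 and 76.2 in Low. The groups were apart without Low replicate 1 as well, and the log2 difference with all libraries was −1.33 (SE 0.42, limma adjusted p = 0.121) and without Low replicate 1 it was −0.84 (SE 0.24, limma adjusted p = 0.0126). F47E1.12 on chromosome X held 31.9, 36.4 and 51.6 in High against 202, 89.4 and 73.0 in Low (limma adjusted p = 0.105). Y54F10BM.9, outside the tRNA kind, held 13.2, 7.11 and 9.82 in High against 25.8, 25.2 and 15.9 in Low. Its fitted difference was −1.08 on the log2 scale (SE 0.34, limma adjusted p = 0.121). F41B5.1 held 3.30, 5.33 and 0.818 in High against 7.58, 7.64 and 7.41 in Low, and its fitted difference was −1.22 on the log2 scale (SE 0.59, limma adjusted p = 0.247). For these 2 genes Low replicate 1 did not stand apart from the other Low libraries.

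The loci were spread unevenly over the chromosomes. Of the 57 matched loci not opposite tRNA genes, 36.8% lie on V, 26.3% on X and 5.26% on I, whereas of the 3865 matched unnamed loci of the same level not opposite tRNA genes 17.3% lie on V, 8.56% on X and 20.3% on I. Of the 54 rows opposite tRNA genes 57.4% lie on X and 0% on I, beside 49.7% and 9.94% of all 161 such rows of the level. These shares were not tested, and rows of near-equal values or neighbouring genes are not independent. Protein-coding genes made up 80.7% and pseudogenes 14.0% of the 57, beside 85.2% and 8.85% of the 3865. The median gene length was 2165 bases, beside 2047.

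**Figure D5:**
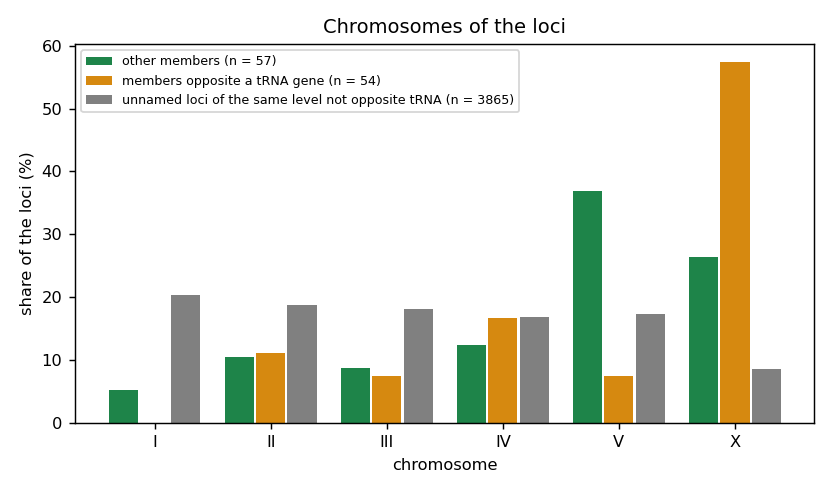
Share of the loci (%) on each chromosome for the other members (green, n = 57), the members opposite a tRNA gene (orange, n = 54) and the unnamed loci of the same level not opposite tRNA genes (grey, n = 3865). Bars start at 0. The green bar is 36.8% on V and the orange bar 57.4% on X, where the grey bars are 17.3% and 8.56%.

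The thresholds cut through a continuous range. Just inside the ratio threshold lay T02G5.4 and ZC504.3 at 0.497 and the pair C16H3.6 and C16H3.7 at 0.495, and just outside lay Y102A5C.35 at 0.508, Y116F11B.9 at 0.511, T17A3.2 at 0.513 and Y54G2A.10 at 0.520. At the level threshold C16H3.6 and C16H3.7 entered with a Low mean of 11.0, R06C7.6 with 11.3 and R07B7.9 with 12.4, while ZK795.1 at 8.76, K10C2.1 at 7.49, W10D9.1 at 7.44 and T27A10.9 at 7.18 stayed out. Among all unnamed loci of the level, 492 (12.1%) had every High library below every Low library, and 195 had a ratio below 0.5, of which 83 failed for overlap of the groups. Rows with a gene name met the same conditions in 43 of 4037 cases, beside 58 of 3921 (1.48%) unnamed loci of the level not opposite tRNA genes.

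The lists of 22G machinery genes and tissue markers hold gene symbols, as do the tested Argonaute and nuclear RNAi genes. The selection of unnamed rows therefore could not take them. The list of ERGO-1 26G targets holds mostly sequence names, and no member was on it. The 22G signal over the 15 tested genes of the 22G machinery, which holds the polymerases, mutator and helicase genes, gave 0 calls by limma, with 1 at an unadjusted p under 0.05, 0 calls by edgeR and DESeq2 and a median log2 difference of 0.04. Over all 22G rows tested, limma called 8.3% in either direction, edgeR 8.25% and DESeq2 8.94%, the background for this list and those below. For rrf-1, an RNA-dependent RNA polymerase, the values were 393 ± 32.1 in High and 418 ± 29.3 in Low (SD, n = 3). By limma 0 of 14 Argonaute genes and 0 of 8 nuclear RNAi genes were called, with 1 and 0 at an unadjusted p under 0.05, and edgeR and DESeq2 called 0 of either list. Of 25 tested ERGO-1 26G targets limma called 6 lower in High and 0 higher, beside 2.66% of all rows lower. In either direction 10 had an unadjusted p under 0.05, where 7.36% of all rows were lower at this level. edgeR called 6 and DESeq2 7 of them lower, and the median log2 difference was −0.09.

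Of the tissue marker lists, oocyte and germline markers gave 0 calls of 12 tested by limma (2 at an unadjusted p under 0.05), embryo markers 0 of 4 and intestine markers 0 of 5 (0 each), as did edgeR and DESeq2, and 0 of 9 sperm markers passed the filter. 1 muscle marker of 3 tested (unc-54), 1 hypodermis marker of 2 (dpy-17) and 1 neuron marker of 5 (egl-21) were higher in High. The summed 22G signal of the 9 muscle markers was 4399.6 to 4762 normalized counts in the High and 3472 to 3704 in the Low libraries, and mup-2, myo-1, myo-3 and unc-15 were at 0 in all of them. Reads of the unc-54 row and of the unc-54 3′ UTR of the reporter cannot be told apart. The sum of the 9 hypodermis markers was 149.7 to 321 in High and 10.6 to 18.2 in Low, with col-19, dpy-7 and rol-6 at 0, and that of the 10 neuron markers was 489.9 to 516 in High and 139 to 173 in Low, with unc-13 at 0. These sums were carried by the gene called in each list: dpy-17 had means of 209 in High and 1.72 in Low, and egl-21 had 375 and 35.6. Of the other tested markers of these lists, lev-11, sqt-3, snb-1 and ric-19 had lower means in High and act-4, rab-3 and ida-1 higher means, and limma, edgeR and DESeq2 called 0 of these 7, with 0 at an unadjusted p under 0.05 by limma. The sum of the 10 intestine markers was 78.6 to 97.7 in High and 93.2 to 111 in Low, with a median log2 difference of −0.22 over the 5 tested. The part of tissue composition in the difference of the members was not tested.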

How the data were processed

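Small RNA from 3 High and 3 Low cultures, treated with phosphatase and kinase, was sequenced from inserts of 18 to 36 bp, per the labels' protocols. The deposited tables hold a normalized count, a signal per row in which the authors scaled reads by 1 factor per library. Per the submitters' processing notes, the tools were DESeq2 1.8.1, featureCounts 1.4.6, Bowtie 1.1.1 and cutadapt 1.7.1. Their settings, the genome build and the annotation were not given in the labels or headers. Nonzero values were whole multiples of 1 step per library (100% within 0.01 reads), so whole reads were recovered.

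A library held 1380170 to 2685999 reads of the 22G class, 18704 to 37706 of the 26G class and 37630 to 59648 of the 21U class.

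Rows with a mean of at least 5 normalized counts were fitted on log2(normalized count + 1) by limma-trend of limma 3.58.1 in R 4.3.3, two-sided, with Benjamini-Hochberg adjustment over all rows of a class at 0.05. These p-values set the group difference of a row against the spread between these samples, with that spread drawn toward that of rows of like level. edgeR 4.0.16 and DESeq2 1.42.0 were run on recovered reads. Biotype and chromosome come from the Ensembl annotation of WBcel235 by name (111 of the 112 members matched), symbols from RefSeq. The members, the lists (22G machinery, Argonautes, nuclear RNAi, ERGO-1 26G targets and 7 tissue marker lists), the rule for named genes (10 lowest ratios, 8 highest Low means, neighbours of the thresholds, members with a mean of 5 in the 26G or 21U class, adjacent members) and the alternatives were chosen with earlier results of these data known. The split by tRNA overlap (rows of at most 300 bases), the sets of near-equal rows, and the genes named for their RefSeq symbol, for lying close together, or for an overlap were chosen after seeing the values. Python 3.11.15 with Matplotlib 3.10.9 made the figures.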

Additional observations from a re-analysis of the deposited data

How the results depend on the processing

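Among the 112 members, limma called 49 lower in the 22G class and 0 in the 26G and 21U classes. Without a filter on low rows these counts were 84 in the 22G class (background 1.73%) and 15 in the 21U class (background 0.288%). Leaving out each library in turn gave 40 to 71 calls in the 22G class (1.75% to 2.81% of all rows lower), 0 to 0 in the 26G class (0% to 0.398%), 0 to 16 in the 21U class (0% to 7.94%) and 0 to 0 in the 22G machinery list. The selection itself held 46 loci at a ratio below 0.33, 186 below 0.67 and 195 with no condition on overlap of the groups, and 55 to 165 when a library was left out. The lowest number came without Low replicate 1, when 53 of the 112 were kept, and the highest without High replicate 1, when 107 were kept. TMM scaling left 98 members, of which 40 were opposite tRNA genes, and equal class totals gave 119. ZC190.7 was not called by DESeq2, and ZC190.10 was not called by limma without trend or without Low replicate 2 or 3. The direction of a member's 22G difference was fixed by the choice wherever the scaling of the libraries was kept. Nothing is therefore read from the fact that no named member reversed under the alternatives run. The median log2 difference over all 26G rows went from −0.53 to 0.09 with equal class totals and to 0.02 without a filter. The causes were not tested.

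With the replicate number as a block, 52 members were called in the 22G class (background 2.66% lower), 0 in the 26G class (background 0%), 0 in the 21U class (background 0%) and 0 in the 22G machinery list. Of the 52, 3 were opposite tRNA genes. Deviations of libraries with the same number correlated at 0.034, 0.046 and 0.020, and those with unlike numbers at −0.082 to 0.038. No shared effect of the replicate number was thus seen. Whether the cultures were paired is not stated and cannot be decided from these values.

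The 26G class held at most 37706 reads in a library, and members at a few reads there could not show a difference at this depth.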
